A study of Mus musculus with 7 samples.

Results

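The insulin-like growth factor (IGF) system of mouse cortical bone was followed through 10 genes of 27179 in the count data, found by their symbols. They were Igf1, Igf1r, Igf2r, Igfbp2, Igfbp3, Igfbp4, Igfbp5, Igfbp6, Igfbp7 and Igfals. All 10 passed the filter on low counts and were among the 15098 genes tested. IGF1 is a growth factor made by the liver and locally by many tissues, bone among them, and in bone it promotes the growth and activity of osteoblasts. It acts through the receptor tyrosine kinase IGF1R. Secreted binding proteins hold the growth factor in the circulation and in the bone matrix and set how much of it reaches the receptor.

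RNA was sequenced from femora that had been cut at the ends, flushed of marrow and frozen. All mice were females of 12 weeks on a C57BL/6 background, and both groups carried Dmp1Cre, a Cre transgene driven by the 10-kb Dmp1 promoter, which is active in osteocytes and late osteoblasts. The genotype Dmp1Cre.EfnB2f/f also has 2 floxed alleles of Efnb2, the gene of the membrane ligand ephrin B2, and gave 3 libraries, while Dmp1Cre mice with unfloxed Efnb2, littermates or cousins, served as controls and gave 4. Each library is from a separate mouse, and the p-values below measure the spread between mice, with mice of the same cross taken as independent. There were 4 parent crosses, of which only the cross of Dmp1Cre.EfnB2f/f 3 and control 3 gave both genotypes. Dmp1Cre.EfnB2f/f 1 and 2 shared another cross, controls 1 and 2 shared a different one, and control 4 came from its own. Outside the shared cross, genotype and parent cross therefore cannot be told apart. Flushed bone is a mixture of cells, and in such bulk RNA fewer cells of a type and less RNA per cell cannot be told apart.

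Counts over the whole length of the targeted gene were higher, not lower, in libraries labelled Dmp1Cre.EfnB2f/f. Libraries labelled Dmp1Cre.EfnB2f/f had 322, 239 and 224 counts of Efnb2 (Entrez gene 13642, chromosome 8, 8617235 to 8661242, mm10), while controls 1 to 4 had 164, 139, 110 and 117. In CPM, which are counts scaled to library size with TMM factors, this was 14.3 ± 3.21 (SD, n = 3) against 7.30 ± 1.07 (SD, n = 4). The log2 fold change of Dmp1Cre.EfnB2f/f over control was 0.96 (SE 0.21, edgeR adjusted p = 0.511). DESeq2 and the limma pipeline described below both called it. Counts over the whole gene do not separate the floxed part, and cells without Dmp1Cre also contribute, so libraries are called by their labels throughout. The study reported effective targeting by PCR of the targeted region in sorted osteocytes, with Efnb2 retained in other cells. Library totals were between 17245556 and 22075778 counts.

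Control 1 stood apart in its cell type markers. The summed level of 6 osteoblast markers (Bglap, Bglap2, Col1a1, Ibsp, Alpl and Sp7) was 40630.5 CPM there, 20035 CPM in control 4, 13925 CPM in Dmp1Cre.EfnB2f/f 3, and between 8031 and 9542 CPM in the other 4 libraries. Col1a1 made up 87.3% to 94.2% of this sum. Of the 6 markers, 5 were highest in these 3 libraries, but Ibsp was highest in Dmp1Cre.EfnB2f/f 1, at 532 CPM, and lowest in control 4, at 168 CPM. All 5 osteocyte markers were measured, with sums from 252 to 495 CPM among libraries labelled Dmp1Cre.EfnB2f/f and from 153 to 610 CPM among controls, so transcripts that mark the labelled tissue were present in every library. Markers of other cells differed as well. The 7 skeletal muscle markers summed to between 21114 and 36294 CPM for Dmp1Cre.EfnB2f/f and between 9946 and 23254 CPM in the controls, and the 5 tested erythroid markers to between 2878 and 7589 CPM against 8666 to 25229 CPM, with no overlap for the latter. The 6 neutrophil markers, all with a lower estimate in Dmp1Cre.EfnB2f/f and 1 with an unadjusted p under 0.05, summed to between 8469 and 10504 CPM against 11772 to 16493 CPM, also with no overlap. Their part in the results below was not tested.

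Between the genotypes, edgeR's quasi-likelihood test called 0 of the 10 IGF genes at an adjusted p under 0.05, against 0% of all genes tested. At an unadjusted p under 0.05 it picked out 1, Igf1, where 9.66% of all genes passed. DESeq2 called 0 (0.477% of all genes) and had 1 at an unadjusted p under 0.05 (12.6% of all genes). The limma pipeline that the study describes, run here without its day term, called 0 (14.9% of all genes) and had 4 at an unadjusted p under 0.05, where 32.9% of all genes were. Those 4 did not include Igf1 and were Igfbp6, Igfbp3, Igfbp4 and Igfbp7, with log2 fold changes of 0.79, 0.44, 0.36 and 0.36 in that pipeline. Of the members, 6 had a higher mean estimate in Dmp1Cre.EfnB2f/f and 4 a lower one, with a median log2 fold change of 0.05, while 51.3% of all genes were above 0 and their median was 0.01. The groups did not overlap for Igf1, where every library labelled Dmp1Cre.EfnB2f/f was above every control (5.05% of all genes), and for Igf1r, where every one was below (6.3% of all genes). In either direction, 2 of 10 members and 11.3% of all genes had groups without overlap.

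**Figure D1:**
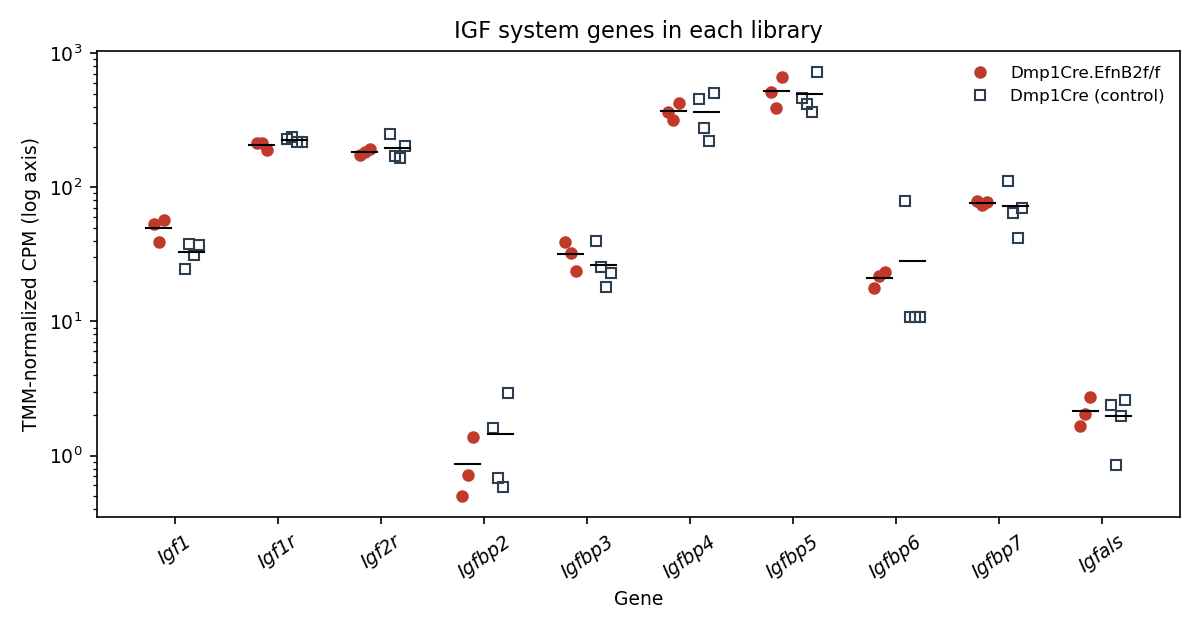
TMM-normalized CPM (log axis) of the 10 IGF system genes in each of 3 Dmp1Cre.EfnB2f/f libraries (filled circles) and 4 controls (open squares), with horizontal lines at the group means. The groups are separate for Igf1 and, by a narrow margin, for Igf1r, and control 1 lies far above the other controls for Igfbp6.

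Igf1, the ligand (Entrez gene 16000, chromosome 10, 87858265 to 87937047), had 53.1, 39.1 and 56.8 CPM in Dmp1Cre.EfnB2f/f 1 to 3 and 24.7, 37.6, 31.4 and 37.4 CPM in controls 1 to 4. Dmp1Cre.EfnB2f/f 2 was only just above control 2, whereas the other two libraries of its genotype were well above all controls. The mean level was 49.7 ± 9.32 CPM (SD, n = 3) in Dmp1Cre.EfnB2f/f against 32.8 ± 6.09 CPM (SD, n = 4), which is 1.51-fold higher. The log2 fold change was 0.60 (SE 0.21, edgeR adjusted p = 0.511), so the difference did not pass the test over all genes. Leaving out each library in turn gave log2 fold changes of 0.49 to 0.75, and without Dmp1Cre.EfnB2f/f 1 or Dmp1Cre.EfnB2f/f 3 the unadjusted p was over 0.05 as well. The limma pipeline gave 0.23 (adjusted p = 0.321), with a quality weight of 7.28 for Dmp1Cre.EfnB2f/f 2, against 0.168 to 3.26 for the other libraries.

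The liver makes most circulating IGF1, and hepatocyte markers had few counts in these bones. None of 5 hepatocyte markers (Alb, Apoa1, Ttr, Serpina1a and Fgb) passed the filter on low counts, and together they had 1 to 55 raw counts in a library. Several cell lists had higher estimates in Dmp1Cre.EfnB2f/f, as Igf1 had. The 5 endothelial markers, all with a higher estimate in Dmp1Cre.EfnB2f/f and 2 with an unadjusted p under 0.05, summed to 374 to 450 CPM against 288 to 377 CPM in the controls. The 5 marrow stroma markers (Lepr, Cxcl12, Kitl, Ebf3 and Foxc1), all higher and 0 under that p, summed to 1422 to 1819 CPM against 1107 to 1669 CPM. All 7 muscle markers were higher and 3 were under that p. No marker of these lists was at 0, and their part in the Igf1 difference was not tested.

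The pattern of Igf1 over the 7 libraries lay nearest to that of Ebf3, a transcription factor of marrow stromal cells. Likeness was taken as the root mean square difference of log2 CPM after each gene was centred on its own mean, and was 0.127 for Ebf3, followed by Rtraf at 0.174 and D130062J21Rik at 0.176. Ebf3 had 51.5, 38.2 and 46.6 CPM in Dmp1Cre.EfnB2f/f, with 26.3, 41.6, 31.7 and 38.5 CPM for the controls. As with Igf1, control 1 was the lowest library, but control 2 was above Dmp1Cre.EfnB2f/f 2. The other listed marrow stroma markers did not follow Igf1, which was highest in Dmp1Cre.EfnB2f/f 3. Cxcl12 was highest in control 4. Lepr, Kitl and Foxc1 had 131, 76.9 and 21.1 CPM in Dmp1Cre.EfnB2f/f 3, below control 2 with 152, 96.6 and 23.1 CPM. The nearest other member was Igfbp5, at 0.381.

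Igf1r, the signalling receptor (Entrez gene 16001, chromosome 7, 67952257 to 68233668), was the steadiest member. Its level was 214, 213 and 189 CPM in Dmp1Cre.EfnB2f/f, with 229, 238, 218 and 219 CPM for the controls, so the highest library was 1.26 times the lowest. The SD of log2 CPM over the 7 libraries was 0.10, and 2.60% of all genes tested had a smaller one. Every library labelled Dmp1Cre.EfnB2f/f was below every control, but the nearest pair was 214 against 218 CPM. The mean was 205 ± 14.3 CPM (SD, n = 3) in Dmp1Cre.EfnB2f/f against 226 ± 9.38 CPM (SD, n = 4), and the log2 fold change of -0.14 was smaller than its SE of 0.15 (edgeR adjusted p = 0.689). Phf1 at 0.0228, Ip6k2 at 0.0416 and Kit at 0.0493 had the nearest patterns, and Igf2r, at 0.200, was the nearest member.

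Igf2r, a scavenger receptor that takes IGF2 to the lysosome and also carries lysosomal enzymes, showed no separation of the genotypes. It lies on chromosome 17, 12682406 to 12769706 (Entrez gene 16004), and measured 175, 183 and 192 CPM against 248, 172, 164 and 205 CPM in controls 1 to 4. The Dmp1Cre.EfnB2f/f values lay inside the range of the controls. The means were 183 ± 8.32 CPM (SD, n = 3) and 198 ± 38.1 CPM (SD, n = 4), with a log2 fold change of -0.11 (SE 0.19, edgeR adjusted p = 0.799), which was 0.02 without control 1 and 0.13 in the limma pipeline. The gene overlaps the antisense RNA Airn, which had 65 to 203 counts, against 2808 to 4794 for Igf2r. Strand setting is not given in the sources used here, so reads of the overlap cannot be told apart. Its nearest patterns were those of Arhgef11 (0.0439), Cdc42bpg (0.0451) and Arl6ip5 (0.0577).

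Levels of different genes can be compared only per length. Expressed as TMM-normalized CPM per kilobase of counted exon (RPKM), the binding protein gene Igfbp4 was the most abundant member, with a median over the 7 libraries of 178 RPKM and a range of 107 to 245 RPKM. Igfbp5 followed with 78.9 RPKM (62.5 to 124) and Igfbp7 with 60.8 RPKM (34.5 to 92.1). Igfbp4 was above Igfbp5 in 7 of 7 libraries and Igfbp5 above Igfbp7 in 6, although the ranges of both neighbouring pairs overlapped. A clear step followed, with Igf2r at 20.5 RPKM (18.4 to 27.8), below Igfbp7 in every library.

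The receptors and the less abundant binding proteins formed the middle of the order. Igf1r had 18.2 RPKM (15.8 to 19.9), Igfbp6 had 13.8 RPKM (8.32 to 61.9) and Igfbp3 had 10.3 RPKM (7.44 to 16.3), and the ranges of these neighbours overlapped, with each above the next in 5 and 4 of 7 libraries. The ligand Igf1, at 4.81 RPKM (3.16 to 7.26), was below Igfbp3 in all 7 libraries with no overlap. Igfals, at 0.961 RPKM (0.405 to 1.30), and Igfbp2, at 0.536 RPKM (0.376 to 2.21), closed the order, and those overlapped.

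The annotated starts of the ligand Igf1, of the receptors Igf1r and Igf2r and of the most abundant binding protein genes, Igfbp4 and Igfbp5, are shown. Each line gives the 50 bases before an annotated start of the gene (GRCm38.p6, the build of mm10), on the strand of the gene. TATAAA (the TATA box) and GGGCGG (the GC box) are in capitals.
Igf1, chr10:87861061-87861110, plus strand: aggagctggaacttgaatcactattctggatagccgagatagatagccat
Igf1r, chr7:67952207-67952256, plus strand: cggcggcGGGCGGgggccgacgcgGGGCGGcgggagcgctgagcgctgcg
Igf2r, chr17:12769707-12769756, minus strand: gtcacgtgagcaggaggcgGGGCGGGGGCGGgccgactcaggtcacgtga
Igfbp4, chr11:99041194-99041243, plus strand: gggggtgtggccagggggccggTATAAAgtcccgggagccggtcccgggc
Igfbp5, chr1:72874866-72874915, minus strand: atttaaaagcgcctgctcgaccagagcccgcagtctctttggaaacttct

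Both strands were searched. The windows of Igf1r and Igf2r each held 2 copies of GGGCGG. These began 43 and 26 bases before the start in Igf1r (positions -43 and -26) and at -31 and -25 in Igf2r. Igfbp4 held TATAAA at -28, and the windows of Igf1 and Igfbp5 held neither. Over 32851 promoters, 16.1% of windows of this length held GGGCGG and 3.50% held TATAAA. The starts used for Igf1 and Igfbp4 lie inside the RefSeq gene intervals given in their paragraphs, downstream of the first base. Their windows are therefore not those before the first base of the gene. The counts do not show which start a transcript used.

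Igfbp4, which binds IGF1 and releases it when the protease PAPPA cuts the binding protein, lies on chromosome 11, 99040005 to 99052655 (Entrez gene 16010). Its level was 367, 315 and 423 CPM in Dmp1Cre.EfnB2f/f, with 455, 278, 221 and 507 CPM for the controls. Controls held both the highest and the lowest values, and the genotype means of 369 ± 54.1 CPM (SD, n = 3) and 365 ± 137 CPM (SD, n = 4) were close together. The log2 fold change was 0.01 (SE 0.31, edgeR adjusted p = 0.988), and its sign turned to -0.01 with DESeq2's size factors and to as low as -0.17, without control 3. Dusp6 (0.0736), Adgra2 (0.0897) and Nynrin (0.0901) had the nearest patterns, and Igfbp5 (0.224) was the nearest member.

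Igfbp5, the binding protein that is abundant in bone matrix, had the highest CPM of the members before length was taken into account (Entrez gene 16011, chromosome 1, 72858065 to 72874865). It measured 516, 388 and 669.9 CPM in Dmp1Cre.EfnB2f/f, with 462, 421, 366 and 725 CPM for the controls. Within each genotype the highest library was well above the lowest, and the groups overlapped over most of their range. The means were 525 ± 141 CPM (SD, n = 3) and 493 ± 159 CPM (SD, n = 4), with a log2 fold change of 0.09 (SE 0.30, edgeR adjusted p = 0.897), which was below 0 without Dmp1Cre.EfnB2f/f 3 (-0.13) or without control 3 (-0.03). The nearest patterns were those of Bmp6 (0.134), St3gal3 (0.155) and Ahdc1 (0.159).

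Igfbp7, a low-affinity member of the family that is also a vessel wall protein, had a near-constant level in Dmp1Cre.EfnB2f/f, of 79.7, 73.7 and 77.6 CPM (Entrez gene 29817, chromosome 5, 77349240 to 77408045). The controls spread around them, at 112, 64.0, 41.8 and 70.4 CPM. The means of 77.0 ± 3.05 CPM (SD, n = 3) and 72.0 ± 29.2 CPM (SD, n = 4) differed by a log2 fold change of 0.10 (SE 0.29, edgeR adjusted p = 0.886), or by 0.39 without control 1 and -0.09 without control 3. The gene ends in an overlap with Polr2b, which had 1752 to 2270 counts. Sh3bp4 (0.0924), Ackr4 (0.0975) and Gpsm1 (0.0988) were nearest in pattern, and Igfbp3 (0.228) was the nearest member.

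Igfbp3, the main carrier of IGF1 in serum (Entrez gene 16009, chromosome 11, 7206086 to 7215498), had 39.3, 32.1 and 24.0 CPM in Dmp1Cre.EfnB2f/f, with 39.9, 25.3, 18.2 and 22.8 CPM for the controls. Control 1 was the highest library, and of the other 3 controls only control 2 was above the lowest Dmp1Cre.EfnB2f/f library. The means were 31.8 ± 7.66 CPM (SD, n = 3) and 26.6 ± 9.36 CPM (SD, n = 4), giving a log2 fold change of 0.26 (SE 0.29, edgeR adjusted p = 0.688), which was 0.52 without control 1 and 0.08 without Dmp1Cre.EfnB2f/f 1. Its pattern lay nearest to Fbn1 (0.102), the gene of the microfibril protein fibrillin, Lrp4 (0.108), a receptor of the Wnt inhibitor sclerostin, and Fam20a (0.115).

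Igfbp6, which prefers IGF2 to IGF1, varied more than any other member, and a single control carried that spread. It lies on chromosome 15, 102144186 to 102149512 (Entrez gene 16012). The 3 libraries labelled Dmp1Cre.EfnB2f/f had 17.8, 21.8 and 23.3 CPM, and controls 2 to 4 had 10.7, 10.8 and 10.8 CPM, but control 1 had 79.8 CPM (1540 counts, against 185 to 198 in the other controls). The means of 21.0 ± 2.81 CPM (SD, n = 3) and 28.0 ± 34.5 CPM (SD, n = 4) gave a log2 fold change of -0.42 (SE 0.74, edgeR adjusted p = 0.800).

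Without control 1 the direction of Igfbp6 turned. The log2 fold change was then 0.96 (edgeR adjusted p = 0.369), and the limma pipeline over all 7 libraries, in which control 1 had a quality weight of 0.193, gave 0.79 (adjusted p = 0.0580). Both estimates missed the threshold. Control 1 also had the highest sums of several marker lists. The 5 markers of periosteum and fibroblasts (Postn, Dpt, Pi16, Clec3b and Mfap5) reached 603 CPM there and 216 to 437 CPM elsewhere. The 5 adipocyte markers reached 418 CPM against 62.1 to 198 CPM, and the osteoblast sum was given above. Postn alone had 480 CPM and the adipocyte marker Cfd 285 CPM in control 1. Pi16 and Adipoq were instead highest in control 4 and Lep in Dmp1Cre.EfnB2f/f 2, while the other markers of these 2 lists were highest in control 1. Lep was at 0 in control 2 and no other marker of these lists was at 0. The part of these cell types in the Igfbp6 level was not tested. Nbl1 (0.214), Ccdc3 (0.223) and Cpxm2 (0.262) had the nearest patterns.

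**Figure D2:**
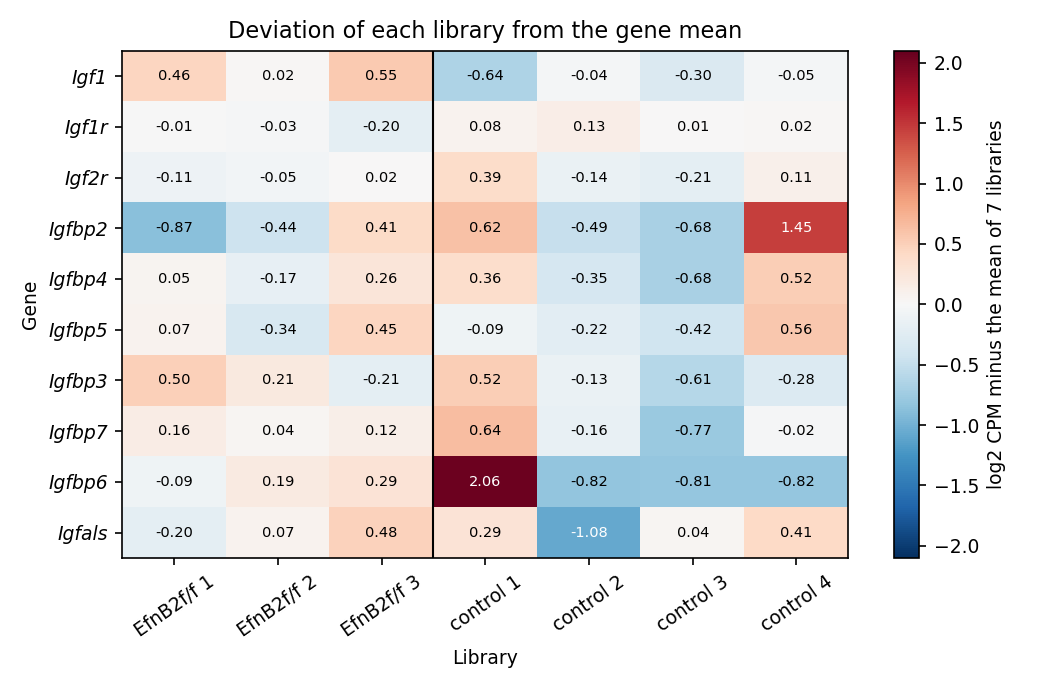
Deviation of each library's log2 CPM from the mean of the 7 libraries, for each IGF system gene (rows) and library (columns, Dmp1Cre.EfnB2f/f left of the line). Igf1r stays within 0.20 of its mean in every library, while Igfbp6 is 2.06 above its mean in control 1 and Igfbp2 1.45 above in control 4.

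Igfbp2, an abundant binding protein of serum, had low counts, with 9, 13 and 26 counts in Dmp1Cre.EfnB2f/f and 31, 12, 10 and 54 counts in the controls (Entrez gene 16008, chromosome 1, 72824480 to 72852474). In CPM these were 0.500, 0.713 and 1.37 against 1.61, 0.684, 0.585 and 2.93. Control 4 was the highest and Dmp1Cre.EfnB2f/f 1 the lowest, with an overlap between. The means were 0.861 ± 0.454 CPM (SD, n = 3) and 1.45 ± 1.09 CPM (SD, n = 4), and the log2 fold change of -0.75 had an SE of 0.62 (edgeR adjusted p = 0.610). Without control 4 it was -0.16 and within the shared cross it was 1.22. Its nearest patterns were those of 3 histone genes, Hist1h1e (0.234), Hist2h3c1 (0.257) and Hist2h3c2 (0.263).

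Igfals, the acid-labile subunit that joins IGF and IGFBP3 or IGFBP5 in the large serum complex and is made mainly by the liver, was also low (Entrez gene 16005, chromosome 17, 24877844 to 24882011). It had 30, 37 and 52 counts against 46, 15, 34 and 48 counts, which is 1.67, 2.03 and 2.74 CPM against 2.38, 0.856, 1.99 and 2.61 CPM. Only control 2 was well below the rest. The means of 2.15 ± 0.546 CPM (SD, n = 3) and 1.96 ± 0.779 CPM (SD, n = 4) differed by a log2 fold change of 0.13 (SE 0.39, edgeR adjusted p = 0.886), or -0.12 without control 2 and -0.09 without Dmp1Cre.EfnB2f/f 3. Pkdcc (0.226), Mief2 (0.248) and Fam129c (0.250) were nearest in pattern.

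**Figure D3:**
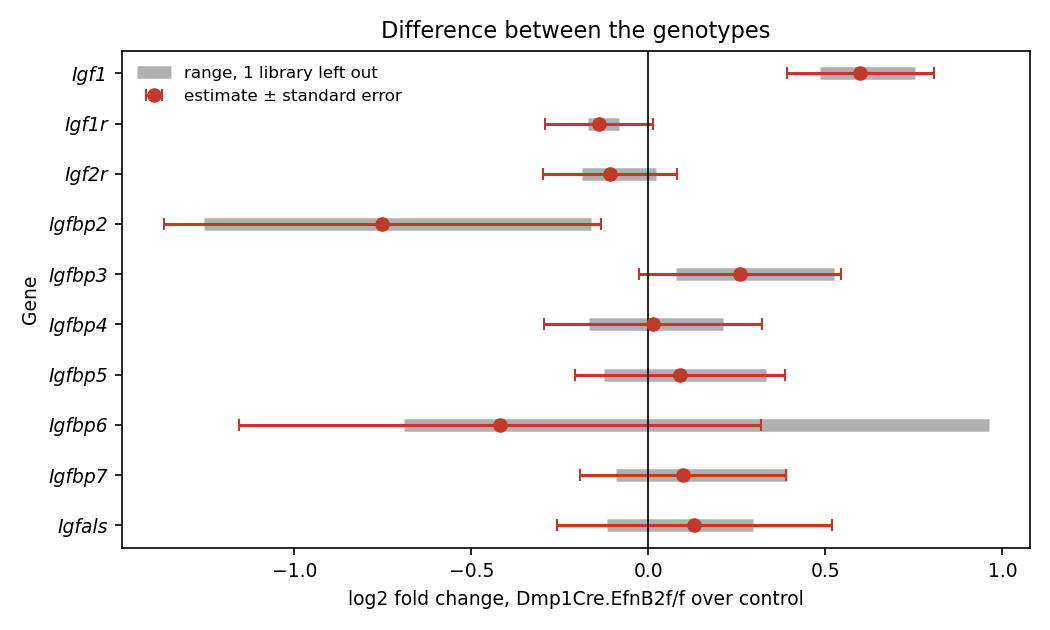
Log2 fold change of Dmp1Cre.EfnB2f/f over control for each IGF system gene (points, with bars of 1 standard error) and the range of the estimate when each library is left out (grey bars). Igf1 stays between 0.49 and 0.75, whereas the range of Igfbp6 runs from -0.69 to 0.96.

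Among the binding protein transcripts, the shares of Igfbp4, Igfbp5 and Igfbp7 differed between the genotypes by less than the SD of either group. Of the summed RPKM of Igfbp2 to Igfbp7, Igfbp4 took 49.3 ± 0.324% (SD, n = 3) in Dmp1Cre.EfnB2f/f and 49.6 ± 3.57% (SD, n = 4) in the controls. Igfbp5 took 24.5 ± 3.19% and 24.7 ± 5.39%, and Igfbp7 took 17.8 ± 2.06% and 16.8 ± 3.06%. These 3 genes thus made up most of the sum in every library. Control 1 departed from the others, with 13.2% for Igfbp6 against 1.87% to 5.45% in the other 6 libraries, and with the lowest share of Igfbp5, 16.8%. The mean share of Igfbp6 was 4.56 ± 0.824% (SD, n = 3) in Dmp1Cre.EfnB2f/f and 5.46 ± 5.19% (SD, n = 4) in the controls. Shares of Igfbp3 were between 2.09% and 4.44% and those of Igfbp2 between 0.104% and 0.494%.

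**Figure D4:**
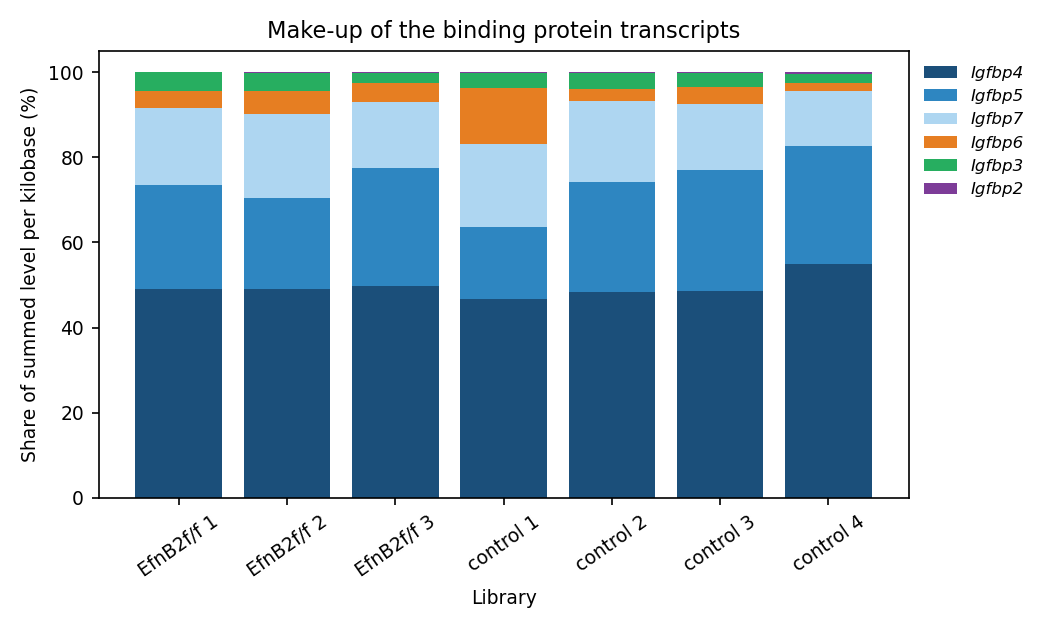
Share of each binding protein gene in the summed level per kilobase of the 6 Igfbp genes (vertical axis, percent), in each library. Igfbp4 takes between 46.8% and 54.8% in every library, and control 1 has the widest band of Igfbp6, 13.2%.

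Set against the ligand, the binding protein transcripts had a narrower range in Dmp1Cre.EfnB2f/f than in the controls. Their summed level was 362, 309.9 and 412 RPKM in Dmp1Cre.EfnB2f/f, with 470.4, 278, 220.0 and 447 RPKM for the controls. Divided by Igf1, this gave ratios of 53.3, 62.0 and 56.7 against 149, 57.9, 54.7 and 93.4. Controls 2 and 3 lay within the Dmp1Cre.EfnB2f/f range, while controls 1 and 4, the libraries with the highest osteoblast marker sums, lay above it. The means were 57.3 ± 4.38 (SD, n = 3) and 88.7 ± 43.8 (SD, n = 4), and the groups overlapped.

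The order of the libraries was also set beside that of the osteoblast markers. For Igf2r, Igfbp2, Igfbp4 and Igfals, 4 of the 10, the 3 highest libraries were controls 1 and 4 and Dmp1Cre.EfnB2f/f 3, the 3 with the highest osteoblast sums (mainly Col1a1, and not the order of Ibsp), a pattern that 14.1% of all genes had. In the only cross that gave both genotypes, Dmp1Cre.EfnB2f/f 3 was above control 3 for 9 of 10 members, against 50.6% of all genes. The ratio was 1.81 for Igf1, 1.92 for Igfbp4, 1.83 for Igfbp5, 1.86 for Igfbp7, 2.15 for Igfbp6, 2.34 for Igfbp2, 1.38 for Igfals, 1.32 for Igfbp3 and 1.17 for Igf2r. Igf1r, at 0.867, was the exception. With 1 mouse of each genotype this has no replicate check, and the osteoblast sum of the same pair was 13925 CPM against 8658 CPM. The study collected its mice on separate days, which the labels do not give. Whether this pair also differs in day is therefore not known.

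Beyond the members, 38 further genes of growth hormone and IGF signalling were listed, and 33 of them had enough counts to be tested. edgeR called 0 of the 33 at an adjusted p under 0.05 and 5 at an unadjusted p under 0.05, of which Igf2, Socs2, Irs1 and Igf2bp2 were higher in Dmp1Cre.EfnB2f/f (4.63% of all genes) and Foxo3 was lower (5.03% of all genes). Estimates were above 0 for 21 of the 33 (63.6%), against 51.3% of all genes. The median log2 fold change was 0.10, against 0.01 for all genes. The lowest estimate was that of Shc1, at -0.55 (SE 0.25, edgeR adjusted p = 0.511). Akt1 (-0.39), Stat5a (-0.38) and Pik3r2 (-0.35) were lower in Dmp1Cre.EfnB2f/f as well. In either direction, 2 of the 33 and 11.3% of all genes had groups without overlap. DESeq2 called 0 (0.477% of all genes) and had 6 at an unadjusted p under 0.05, against 12.6% of all genes. The limma pipeline called 7, with Irs1, Igf2, Igf2bp2, Stat5b, Ghr and Socs2 higher (7.49% of all genes) and Pik3cb lower (7.39% of all genes), where it called 2246 of all 15098 genes, 14.9%. Stat5a, Stat5b, Shc1, Akt1, Pik3r2 and Pik3cb are named here after their values were seen. The endothelial, marrow stroma and muscle sums given beside Igf1 also belong beside the higher genes of this list, and their part was not tested.

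Upstream of Igf1, the growth hormone receptor signals through STAT5 to Igf1 and to Socs2, a feedback inhibitor of the pathway. The estimates of Stat5a and Stat5b had opposite signs. They were -0.38 (SE 0.24, edgeR adjusted p = 0.537) and 0.13 (SE 0.18, edgeR adjusted p = 0.749). Ghr had 66.3, 63.7 and 49.2 CPM in Dmp1Cre.EfnB2f/f, with 37.1, 41.5, 54.0 and 22.1 CPM for the controls. Control 3 was above Dmp1Cre.EfnB2f/f 3, which kept the groups from separating. The means of 59.7 ± 9.22 CPM (SD, n = 3) and 38.7 ± 13.2 CPM (SD, n = 4) gave a log2 fold change of 0.63 (SE 0.28, edgeR adjusted p = 0.511, limma pipeline adjusted p = 0.0330), and within the shared cross it was -0.14.

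The gap between the groups was wider for Socs2 than for Igf1, with 12.5, 10.3 and 11.3 CPM against 7.92, 7.76, 6.38 and 7.06 CPM. All 3 libraries labelled Dmp1Cre.EfnB2f/f were above all controls (5.05% of all genes). The mean was 11.3 ± 1.07 CPM (SD, n = 3) in Dmp1Cre.EfnB2f/f against 7.28 ± 0.706 CPM (SD, n = 4), with a log2 fold change of 0.64 (SE 0.18, edgeR adjusted p = 0.511, limma pipeline 0.42 with adjusted p = 0.0499).

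Igf2, the fetal growth factor of the family, was measured at 15.3, 17.7 and 23.8 CPM in Dmp1Cre.EfnB2f/f, with at 18.0, 9.87, 6.56 and 9.35 CPM for the controls (Entrez gene 16002, chromosome 7). Again control 1 stood above the other controls, and it overlapped with the Dmp1Cre.EfnB2f/f range. The means were 18.9 ± 4.40 CPM (SD, n = 3) and 10.9 ± 4.91 CPM (SD, n = 4), giving a log2 fold change of 0.79 (SE 0.33, edgeR adjusted p = 0.511, limma pipeline adjusted p = 0.0183). Igf2bp2, which codes for an RNA-binding protein of Igf2 mRNA, was low, at 2.61, 2.91 and 2.11 CPM against 1.81, 1.48, 1.29 and 1.36 CPM. Its groups did not overlap, with every Dmp1Cre.EfnB2f/f library above every control (5.05% of all genes). Its log2 fold change was 0.77 (SE 0.26, edgeR adjusted p = 0.511, limma pipeline adjusted p = 0.0204).

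**Figure D5:**
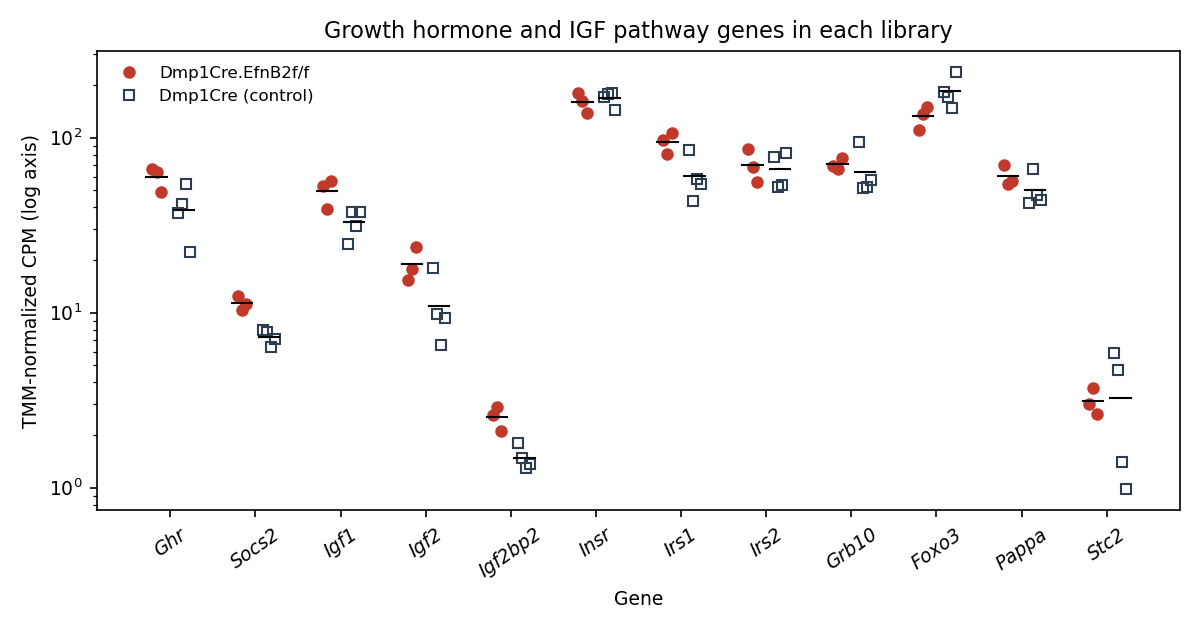
TMM-normalized CPM (log axis) of Igf1 and of the named growth hormone and IGF pathway genes in 3 Dmp1Cre.EfnB2f/f libraries (filled circles) and 4 controls (open squares), with lines at the group means. Socs2, Igf1 and Igf2bp2 have every Dmp1Cre.EfnB2f/f library above every control, as 5.05% of all genes do, and the other genes overlap.

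Downstream of the receptor, Irs1, the adaptor that links IGF1R to PI3 kinase, had 96.4, 80.8 and 107 CPM in Dmp1Cre.EfnB2f/f, with 84.6, 43.7, 58.2 and 54.3 CPM for the controls. Only control 1 reached the Dmp1Cre.EfnB2f/f range. The log2 fold change was 0.65 (SE 0.23, edgeR adjusted p = 0.511, limma pipeline adjusted p = 0.0147). Its relative Irs2 overlapped, with 86.7, 67.7 and 55.8 CPM against 77.5, 52.2, 53.7 and 81.9 CPM and a log2 fold change of 0.08 (SE 0.23, edgeR adjusted p = 0.884), which was -0.10 without Dmp1Cre.EfnB2f/f 1.

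Foxo3, a transcription factor that insulin and IGF signalling keeps out of the nucleus, had 111, 137 and 149.7 CPM in Dmp1Cre.EfnB2f/f, with 182, 170.0, 147 and 238 CPM for the controls. The groups overlapped at a single pair, Dmp1Cre.EfnB2f/f 3 and control 3, which shared a cross. Its log2 fold change was -0.48 (SE 0.21, edgeR adjusted p = 0.511), and 0.02 within that cross. Foxo3 was highest in control 4, which also had the highest sum of the erythroid markers, 25229 CPM. The part of erythroid RNA in its level was not tested.

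The insulin receptor and the modifiers of IGF binding did not separate. Insr had 179.9, 162 and 138 CPM against 170.0, 177, 179 and 144 CPM, a log2 fold change of -0.07 (SE 0.17, edgeR adjusted p = 0.865) that was 0.01 with scaling to library size alone, and the ratio of Igf1r to Insr per kilobase was between 0.931 and 1.19 in all libraries. Pappa, the protease that cuts IGFBP4, had 69.9, 54.5 and 56.9 CPM against 42.6, 66.4, 46.8 and 44.2 CPM (log2 fold change 0.27, SE 0.20, edgeR adjusted p = 0.575, and -0.05 in the limma pipeline). Stc2, an inhibitor of PAPPA, had 3.00, 3.73 and 2.64 CPM against 5.90, 4.73, 1.41 and 0.978 CPM, and controls 1 and 2 were above and controls 3 and 4 below all libraries labelled Dmp1Cre.EfnB2f/f (log2 fold change -0.06, SE 0.58, edgeR adjusted p = 0.966, and 0.40 without control 1).

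Grb10, an adaptor that restrains the insulin and IGF1 receptors, had 69.3, 66.2 and 77.0 CPM in Dmp1Cre.EfnB2f/f. In the controls it had 95.0 CPM in control 1 and 51.4, 52.2 and 57.2 CPM in controls 2 to 4, so that only control 1 was above the Dmp1Cre.EfnB2f/f libraries. The log2 fold change was 0.15 (SE 0.24, edgeR adjusted p = 0.783), and 0.40 without control 1. The 5 genes not tested, Igfbp1, Igfbpl1, Insrr, Irs4 and Igf2bp1, had between 0 and 5 counts in every library.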

How the data were processed

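RNA was collected from flushed femora of 3 Dmp1Cre.EfnB2f/f and 4 Dmp1Cre mice, 1 library each. The authors demultiplexed reads with bcl2fastq 2.17.1.14 (per the labels), mapped the paired-end reads to mm10 with Rsubread, and deposited raw counts per Entrez gene from featureCounts, with no normalization or pooling. Versions of the latter tools and the strand setting are not given in the sources used here. The table of the series and the files of single libraries differed in 0 values.

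From these counts, 27179 genes were reduced to 16302 that reached 0.65 CPM in 3 or more libraries, and 1204 of these were left out by class (immunoglobulin segments, ribosomal RNA, predicted genes, pseudogenes, genes without a symbol, Y-linked genes and Xist), which left 15098. edgeR 4.0.16 in R 4.3.3 (TMM, robust quasi-likelihood test) compared the genotypes over all 7 libraries, with Benjamini-Hochberg adjustment over these genes and a threshold of 0.05. An SE is the log2 fold change over the square root of F. Levels are TMM-normalized CPM, and RPKM divides these by the exon length in the files. Totals of 17245556 to 22075778 counts per library set the counting precision. Positions follow the RefSeq table of GRCm38.p6.

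Alternatives were library size only, upper quartile and DESeq2 size factors, DESeq2 1.42.0, the limma pipeline of the study (limma 3.58.1 on quantile-normalized log2 CPM, prior count 2, sample quality weights and a robust trend), no low-count filter, a minimum of 10 counts in every library, keeping all gene classes, blocks for replicate number, parent cross or day, and leaving out each library in turn. The study blocked on the day of collection, which the labels do not give, so the day was left out and 12 possible assignments were run instead. edgeR, DESeq2 and the limma pipeline were each tested on simulated data. The members, gene lists and marker lists were chosen with earlier results of these data known. Named were all members, pathway genes with an unadjusted edgeR p under 0.05, 8 pathway genes named in any case (Igf2, Insr, Irs1, Irs2, Ghr, Pappa, Stc2 and Grb10), and for members the 3 nearest genes with a mean of at least 10 CPM and the nearest member.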

Additional observations from a re-analysis of the deposited data

Results flagged for a closer look

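Of 22 results examined for a single control far from the other 3 controls, 2 were found, where chance alone gives about 1.1, since it marks about 1 group in 20. For Igfbp6 the gap between control 1 and the next control was 0.998 of the range of all 4 controls. For Grb10 the gap of control 1 was 0.868 of that range. Both were highest in the same library, which also had the highest osteoblast marker sum.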

How the results depend on the processing

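Of 189 values of the members under alternatives, 169 kept their direction and their side of the threshold and 20 changed sign, and 0 members were called in any. Igf1, Igf1r and Igfbp3 kept their direction throughout. Genes called over the whole table numbered 72 with DESeq2, 2246 with the limma pipeline, up to 1 with a day block and 0 to 2 with each library left out, 2 without Dmp1Cre.EfnB2f/f 3 and 2 without control 4. Of the other pathway genes the limma pipeline called 7, and DESeq2 and limma also called Efnb2. The cause of these differences was not tested. The replicate numbers did not pair the mice (correlations of same-numbered libraries -0.145, 0.0631 and -0.419, and no library correlated best with its own number), and the fit with the replicate block called 1 gene and 0 members and gave 0.0535 for Igfbp6.

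Log2 fold changes that changed sign were as follows. In the limma pipeline they were 0.13 for Igf2r, 0.79 for Igfbp6 and -0.0506 for Pappa. With the parent cross as a block, which rests on Dmp1Cre.EfnB2f/f 3 and control 3 alone, they were 0.22 for Igf2r, 1.22 for Igfbp2, 1.10 for Igfbp6, 0.90 for Stc2, -0.14 for Ghr and 0.0227 for Foxo3. Igfbp4 was -0.00968 with DESeq2 and -0.00969 with its size factors alone, and Insr was 0.00839 with library size only. Over the 12 day blocks the lowest value was -0.0133 for Igfbp4 and the highest 0.24 for Igfbp6 and 0.18 for Stc2. With each library left out the ranges were -0.19 to 0.0212 for Igf2r, -0.17 to 0.21 for Igfbp4, -0.13 to 0.33 for Igfbp5, -0.69 to 0.96 for Igfbp6, -0.0914 to 0.39 for Igfbp7, -0.12 to 0.30 for Igfals, -0.16 to 0.0306 for Insr, -0.37 to 0.40 for Stc2 and -0.10 to 0.22 for Irs2. Igfbp2 could not be tested with at least 10 counts in every library, and DESeq2 gave no adjusted p for Igfbp6. The members with the fewest counts were Igfbp2, with 9 to 54, and Igfals, with 15 to 52.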
